A study of Capra hircus with 13 samples.

Results

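The septin genes were followed from the mature goat (*Capra hircus*) oocyte to the 8-cell embryo, and in 8-cell embryos with and without siRNA against *YTHDF2*, which encodes a reader of the m6A mark on mRNA. The 6 genes described are *SEPT1*, *SEPT2*, *SEPT3*, *SEPT7*, *SEPT8* and *SEPT11*. The 6 were chosen by name, with earlier results of these data known. The 5 deposited tables write their names as the dates 1-Sep, 2-Sep, 3-Sep, 7-Sep, 8-Sep and 11-Sep. They are 6 of 13 septin names among 18138 gene names that each table lists a single time. The other 7 (*SEPT4*, *SEPT5*, *SEPT6*, *SEPT9*, *SEPT10*, *SEPT12* and *SEPT14*) averaged below 1 FPKM (fragments per kilobase of exon, scaled to the library total) over the untreated libraries, whereas each of the 6 averaged more. Presence in the tables did not separate them, since all 13 are in each of the 5, and all 13 had a SEPT symbol in the RefSeq gene table.

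Smart-seq2 libraries of polyA RNA were made from untreated oocytes matured to metaphase II (MII, *n* = 3), untreated 4-cell embryos (*n* = 3), untreated 8-cell embryos (*n* = 3), 8-cell embryos injected with negative control (NC) siRNA (*n* = 2, titled WT in the deposit, with NC siRNA as their treatment) and 8-cell embryos injected with *YTHDF2* siRNA (*n* = 2). The untreated libraries came from 2 earlier studies of the same group, and which study gave which library is not stated. The MII table has 18957 rows, fewer than the 22107 rows of both embryo tables. In every comparison with MII oocytes the stage cannot be told apart from the table, or from the study if the stages came from different ones. The injected libraries were each made from pooled embryos. The zygotes were injected into the cytoplasm 8 h after in vitro fertilization (IVF), and siRNA that targeted *YTHDF2* was used at 20 µM. The replicates are not said to come from separate animals, so p-values measure only the spread between these libraries, which may be technical.

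Septins are GTP-binding proteins that join end to end into hetero-oligomers and then into filaments beneath the plasma membrane. In dividing animal cells the filaments gather at the cleavage furrow with actin, myosin II and anillin, and remain at the midbody until the daughter cells separate. Septins fall into sequence groups that hold fixed places in an oligomer. SEPT7 is the only member of its group and takes part in nearly every oligomer. SEPT8 and SEPT11 belong to the SEPT6 group, whose members can replace each other. SEPT1 and SEPT2 belong to the SEPT2 group, and SEPT3 belongs to the group that also holds SEPT9 and SEPT12. Cleavage of the early embryo is a series of cytokineses that begins on mRNA stored by the oocyte.

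The knockdown rested on a mixture of a pair of siRNAs. Their antisense strands are shown because these strands guide the silencing complex, with the seed (bases 2 to 8 from the 5′ end) in capitals.
s28148: uUGCUAGCaauaucagcccaa
s28147: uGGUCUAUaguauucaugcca
The seeds of these strands differ from each other. The targeted gene, *YTHDF2*, had 112 and 159 FPKM with NC siRNA against 8.07 and 4.47 FPKM with *YTHDF2* siRNA, so that the groups did not overlap. The log2 fold change was -4.25 (SE 0.43, limma adjusted p = 3.7e-04).

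The untreated libraries held between 26853876 and 42495116 fragments, as recovered from the FPKM steps, and the genes listed in all the untreated tables took 63.9 to 65.3% of the fragments of MII oocytes and 90.2 to 94.7% of those of the embryos. FPKM is scaled to the whole total, so scaling to the shared genes instead raises MII levels relative to embryos and lowers each ratio of embryos to MII oocytes, and the common sum given below scales to the FPKM of these genes. The tables of the injected embryos were rounded to 2 decimals, so their depth is unknown. They were normalized apart from the untreated tables, and levels in the 2 sets are set side by side without a test. The correlation of log2(FPKM + 1) between replicates was 0.946 to 0.978 in the MII, 4-cell, NC and *YTHDF2* siRNA groups. 8-cell replicate 1 stood apart, with 0.854 and 0.898 against the other 8-cell libraries, which had 0.966 with each other, and a number of values are also given without it. Of 10 oocyte marker genes, 9 were listed, all at a mean of 1 FPKM or more in MII oocytes. They summed to 2798 to 3826 FPKM in MII oocytes, 2932 to 4768 in 4-cell embryos and 3838 to 5516 in 8-cell embryos. *KPNA7* held the largest part, with means of 1564, 1089 and 1891 FPKM. From MII oocytes to 8-cell embryos *ZP3* fell from 109 to 38.8 FPKM, *FIGLA* from 8.38 to 1.96 and *ZAR1* from 2.45 to 1.45. The other listed oocyte genes rose. Summed sperm and leukocyte markers reached at most 1.36 and 1.56 FPKM in an untreated library. The summed FPKM of the cumulus and granulosa cell list (10 of 12 genes listed) was 57.1 to 76.3 in MII oocytes, 67.6 to 74.9 in 4-cell embryos and 95.6 to 142 in 8-cell embryos, and *STAR*, *HAS2*, *TNFAIP6* and *VCAN* averaged over 1 FPKM in each of these groups. From MII oocytes to 8-cell embryos the mean of *STAR* went from 30.8 to 58.9 FPKM and that of *HAS2* from 9.31 to 24.8. That of *TNFAIP6* went from 7.12 to 14.6 and that of *CYP19A1* from 0.384 to 1.81. *VCAN* fell from 15.4 to 13.6 FPKM, and *FSHR*, *INHA*, *INHBA* and *PTX3*, below 1 FPKM in MII oocytes, also fell. *AMH* was at 0 in each group. The part of these marker genes in the septin values was not tested. Genes of the activated embryonic genome (3 of 5 listed) summed to 9.44 to 13.2 FPKM in MII oocytes, 34.5 to 86.3 in 4-cell embryos and 267 to 603 in 8-cell embryos. In bulk libraries a change in the share of cells that hold an mRNA and a change in mRNA per cell cannot be told apart.

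*SEPT7* and *SEPT11* had the highest mean levels of all septins in every group. FPKM is scaled by gene length, so the levels of the septins can be set in order. In MII oocytes *SEPT11* measured 104 ± 6.92 FPKM and *SEPT7* 48.7 ± 2.34 FPKM (mean ± SD, *n* = 3), followed by *SEPT1* at 25.5 ± 7.37, *SEPT8* at 6.63 ± 1.76, *SEPT2* at 6.35 ± 1.95 and *SEPT3* at 2.11 ± 1.68. In this order only *SEPT8* and *SEPT2* could not be ranked, since their libraries overlapped. In 4-cell embryos *SEPT7* (110 ± 10.2 FPKM) and *SEPT11* (106 ± 30.2) overlapped each other and lay above *SEPT1* (23.5 ± 4.06), while *SEPT3* (7.24 ± 4.00), *SEPT8* (5.30 ± 2.98) and *SEPT2* (4.30 ± 1.30) overlapped as neighbours. In 8-cell embryos *SEPT11* (115 ± 17.6 FPKM) overlapped *SEPT7* (103 ± 25.0), which overlapped *SEPT1* (49.5 ± 28.5). The lower septins were *SEPT2* (8.51 ± 3.79), *SEPT3* (8.05 ± 2.58) and *SEPT8* (6.28 ± 5.12). The overlap of *SEPT7* and *SEPT1* came from 8-cell replicate 1, with 74.3 and 82.4 FPKM. The other 8-cell libraries had *SEPT7* at 118 and 117 and *SEPT1* at 33.98 and 32.1. *SEPT8* was at 12.1 FPKM in 8-cell replicate 1, beside 2.69 and 4.01.

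**Figure D1:**
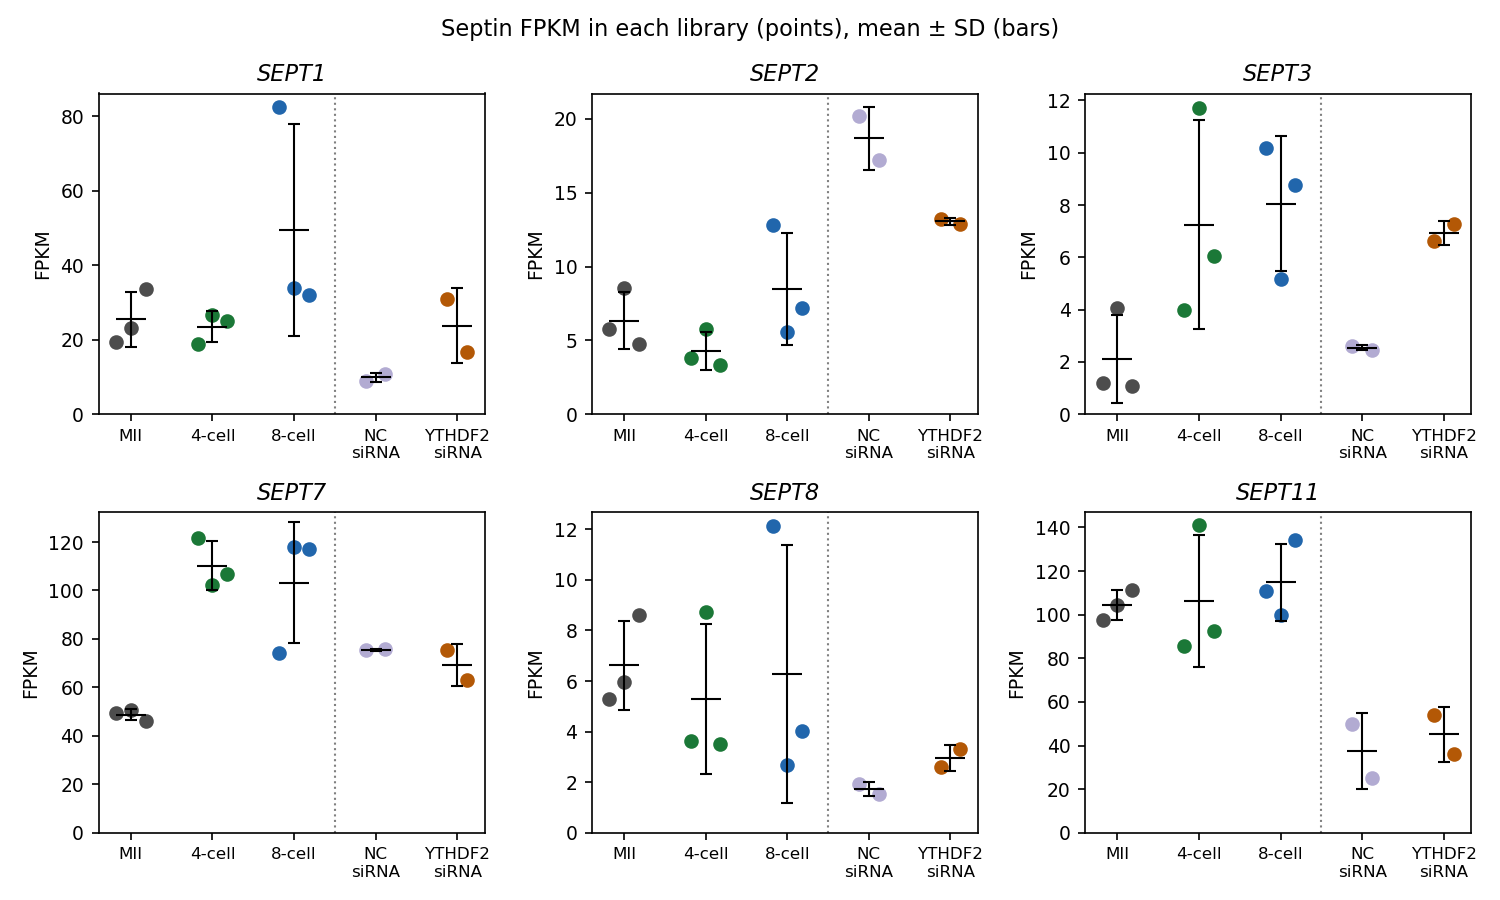
FPKM of the 6 septins (vertical axis, linear from 0) in each library of the 5 groups, with a point per library and the mean ± SD as bars. A dotted line separates the untreated groups from the injected ones, which were normalized apart. *SEPT7* lay between 46.0 and 50.5 FPKM in MII oocytes and at 74.3 FPKM or more in each untreated embryo library.

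In the injected embryos the order was set without overlap between neighbours. With NC siRNA it ran from *SEPT7* (75.6 ± 0.382 FPKM, *n* = 2) through *SEPT11* (37.5 ± 17.5), *SEPT2* (18.7 ± 2.13), *SEPT1* (9.88 ± 1.20) and *SEPT3* (2.54 ± 0.0990) to *SEPT8* (1.73 ± 0.276). With *YTHDF2* siRNA *SEPT1* (23.7 ± 10.0 FPKM) stood before *SEPT2* (13.1 ± 0.212), and the places of the other septins were those of the NC group.

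*SEPT7*, the gene of the core subunit, was the septin with the clearest rise after the MII stage. It measured 49.5, 50.5 and 46.0 FPKM in MII oocytes, 122, 102 and 107 FPKM in 4-cell embryos and 74.3, 118 and 117 FPKM in 8-cell embryos. Every embryo library was above every oocyte library, and 8-cell replicate 1 was the lowest of the embryos. The ratio of the mean FPKM to that of MII oocytes was 2.26 in 4-cell embryos and 2.12 in 8-cell embryos. On the log2(FPKM + 1) scale the fold change was 1.16 in 4-cell embryos (SE 0.20, 95% confidence interval 0.71 to 1.61, limma adjusted p = 0.0025) and 1.04 in 8-cell embryos (SE 0.20, 0.59 to 1.49, adjusted p = 0.0032). With 8-cell replicate 1 left out, the 8-cell value was 1.26 (adjusted p = 3.9e-04). Both stages were set against the same MII libraries.

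The size of the *SEPT7* increase depended on how the libraries were scaled. The median log2 fold change of all genes tested was 0.29 in 4-cell embryos and 0.37 in 8-cell embryos, and *SEPT7* lay 0.87 and 0.67 above these medians. When the libraries were rescaled by median ratios, its log2 fold changes were 0.79 and 0.66 and did not pass the threshold (adjusted p = 0.055 and 0.081). When the FPKM of the shared genes were rescaled to a common sum, they were 0.63 and 0.62 (adjusted p = 0.042 and 0.034). In both rescalings *SEPT7* was higher in the embryos. Over 16 alternatives its adjusted p ran from 3.6e-04 to 0.055 in 4-cell embryos and from 3.9e-04 to 0.081 in 8-cell embryos, and 15 of 16 were under 0.05 in each.

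*SEPT3*, whose protein is best known from neurons, also rose, from a low level. It measured 1.21, 4.04 and 1.07 FPKM in MII oocytes, 3.98, 11.7 and 6.05 FPKM in 4-cell embryos and 10.2, 5.18 and 8.75 FPKM in 8-cell embryos. The 8-cell libraries were all above the oocytes, whereas MII replicate 2 was above 4-cell replicate 1. These levels rest on 108 to 822 fragments a library. The log2 fold change was 1.42 in 4-cell embryos (SE 0.45, 0.42 to 2.43, limma adjusted p = 0.038) and 1.62 in 8-cell embryos (SE 0.45, 0.62 to 2.63, adjusted p = 0.018).

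The *SEPT3* calls did not hold in every alternative. Calls of all genes in 4-cell embryos also fell, from 2833 to between 1820 and 2434, when an MII or 4-cell library was left out. In 4-cell embryos the log2 fold change was 1.24 without MII replicate 1 (adjusted p = 0.13), 1.19 without MII replicate 3 (0.13), 1.06 without 4-cell replicate 2 (0.12), 1.48 without 4-cell replicate 3 (0.081) and 1.42 without 8-cell replicate 3 (0.055). In 8-cell embryos it was 1.44 without MII replicate 1 (adjusted p = 0.071), 1.40 without MII replicate 3 (0.069) and 1.55 without 8-cell replicate 3 (0.060). Without 8-cell replicate 1 it was 1.45 (adjusted p = 0.039). Rescaling to a common sum gave 1.23 (adjusted p = 0.13) and 1.56 (adjusted p = 0.053), and median ratios gave 1.16 (adjusted p = 0.052) and 1.36 (adjusted p = 0.023). The adjusted p was under 0.05 in 7 of 16 alternatives in 4-cell embryos (range 0.013 to 0.13) and in 12 of 16 in 8-cell embryos (range 0.0069 to 0.071).

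*SEPT11*, the leading member of the SEPT6 group, showed no change that passed the test. It measured 97.4, 104 and 111 FPKM in MII oocytes, 85.6, 141 and 92.6 FPKM in 4-cell embryos and 111, 99.7 and 134 FPKM in 8-cell embryos. The ranges of the 3 stages overlapped. The log2 fold change against MII oocytes was -0.0047 in 4-cell embryos (SE 0.21, -0.48 to 0.47, limma adjusted p = 0.99) and 0.13 in 8-cell embryos (SE 0.21, -0.34 to 0.60, adjusted p = 0.66), and by median ratios these were -0.38 and -0.25, and by a common sum -0.54 and -0.30. *SEPT8*, of the same group, measured 5.31, 5.96 and 8.62 FPKM in MII oocytes, 3.63, 8.73 and 3.52 in 4-cell embryos and 12.1, 2.69 and 4.01 in 8-cell embryos. Its log2 fold changes were -0.35 and -0.27 (adjusted p = 0.62 and 0.70), and leaving out 8-cell replicate 2 turned the latter to 0.11, while leaving out 8-cell replicate 1 gave -0.80. By median ratios they were -0.68 and -0.60, and by a common sum -0.90 and -0.72. The RefSeq table places another gene across *SEPT8* (*LOC108636387*) and across *SEPT11* (*LOC102177425*), and Smart-seq2 does not mark strand, so reads of these pairs may not be separable.

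In the SEPT2 group, *SEPT1* measured 19.5, 23.2 and 33.7 FPKM in MII oocytes, 19.0, 26.7 and 24.9 FPKM in 4-cell embryos and 82.4, 33.98 and 32.1 FPKM in 8-cell embryos. The high value belonged to 8-cell replicate 1, and MII replicate 3 lay within the range of the 8-cell libraries. The log2 fold change against MII oocytes was -0.09 in 4-cell embryos (limma adjusted p = 0.88) and 0.83 in 8-cell embryos (SE 0.36, 0.02 to 1.64, adjusted p = 0.098), and the second of these was 0.40 (adjusted p = 0.24) without 8-cell replicate 1. By median ratios they were -0.45 and 0.46, and by a common sum -0.62 and 0.42. *SEPT2*, the founding member of the group, measured 5.75, 8.52 and 4.77 FPKM in MII oocytes, 3.796, 5.77 and 3.32 in 4-cell embryos and 12.8, 5.57 and 7.17 in 8-cell embryos. Both embryo stages overlapped with the MII oocytes. Its log2 fold changes were -0.47 (-1.21 to 0.27, adjusted p = 0.32) and 0.33 (-0.41 to 1.07, adjusted p = 0.46), and the latter was 0.029 without 8-cell replicate 1. By median ratios they were -0.79 (adjusted p = 0.059) and -0.0023, and by a common sum -1.03 (adjusted p = 0.079) and -0.045.

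Against MII oocytes, 2 of 6 septins were called higher and 0 lower in 4-cell embryos, where 31.2% of the 9090 genes tested were called in either direction, 24.7% higher and 6.42% lower. In 8-cell embryos 2 of 6 were called higher and 0 lower, where 37.4% of all genes were called, 27.3% higher and 10.0% lower. *SEPT7* was without overlap in 4-cell embryos, 1 of 6 septins beside 51.9% of all genes, and *SEPT3* and *SEPT7* in 8-cell embryos, 2 of 6 beside 50.1%. By the rule of the study's methods (unadjusted p under 0.05 and more than 2-fold) the same genes were called at each stage, where 22.8 and 28.0% of all genes were called. By adjusted p the 2 of 6 septins lie near the share of all genes, whereas groups without overlap were a smaller share of the septins than of all genes, and with 6 genes no more is read from these counts. The median log2 fold change over the 6 septins was -0.05 in 4-cell embryos and 0.58 in 8-cell embryos, beside 0.29 and 0.37 over all genes. The 8-cell median depended on 8-cell replicate 1. Without it the values were -0.80 (*SEPT8*), 0.029 (*SEPT2*), 0.15 (*SEPT11*), 0.40 (*SEPT1*), 1.26 (*SEPT7*) and 1.45 (*SEPT3*), beside a median of 0.26 over all genes. Rescaling the libraries moved the share of all calls that were higher in 4-cell embryos from 79.4% to 49.95% with median ratios and 42.9% with a common sum. In 8-cell embryos it moved from 73.2% to 50.3 and 48.4%.

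**Figure D2:**
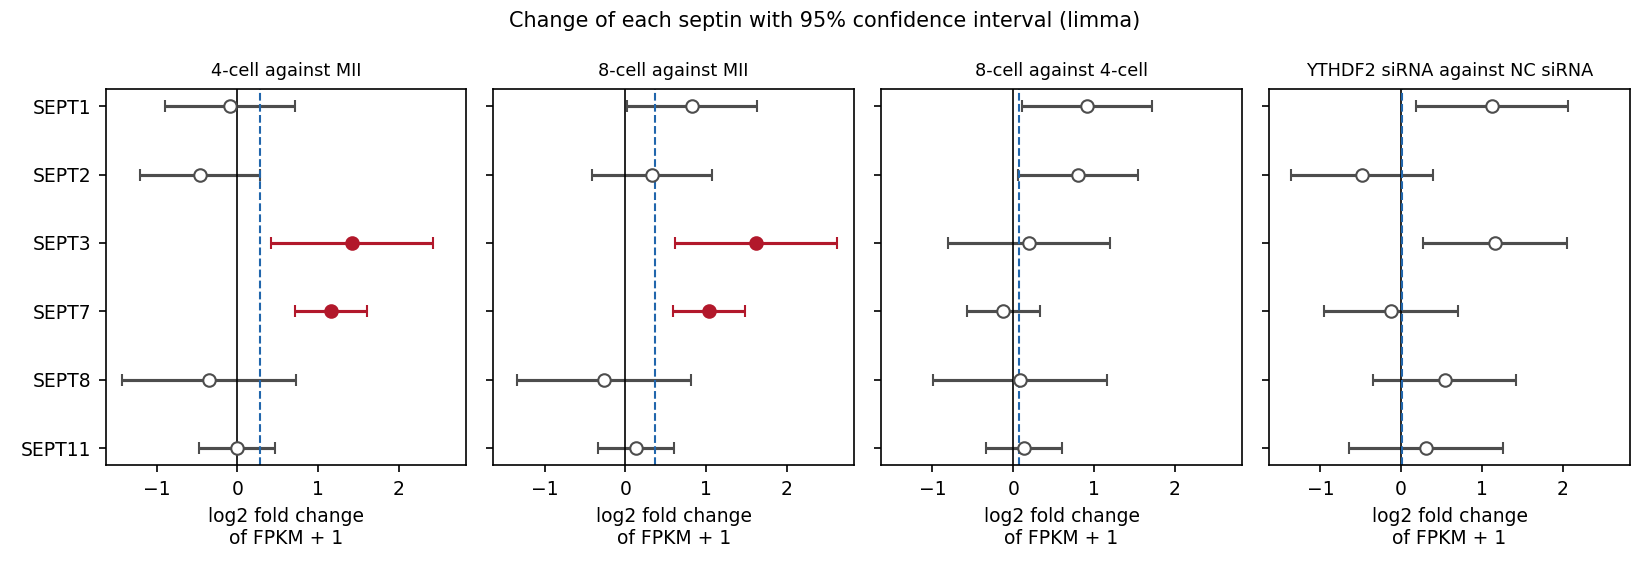
Log2 fold change of FPKM + 1 for each septin (horizontal axis) in the 4 comparisons, with 95% confidence intervals from limma. Filled red points passed an adjusted p of 0.05, open points did not, and the dashed blue line is the median of all genes tested. *SEPT3* and *SEPT7* were called in both comparisons with MII oocytes, and no septin was called in the other comparisons.

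From the 4-cell to the 8-cell stage limma called 0 of 6 septins, where 8.29% of the 9090 genes were called (3.06% higher, 5.24% lower). limma voom on the recovered fragments also called 0, the rule of the study's methods called 0 (8.83% of all genes), and 2 septins had an unadjusted p under 0.05. These were *SEPT1*, with a log2 fold change of 0.92 (SE 0.36, 0.11 to 1.72, adjusted p = 0.16), and *SEPT2*, with 0.80 (SE 0.33, 0.06 to 1.54, adjusted p = 0.18). *SEPT1* was higher in each 8-cell library than in any 4-cell library, 1 of 6 septins without overlap, beside 28.2% of all genes. Without 8-cell replicate 1 its log2 fold change was 0.49 (adjusted p = 0.29), and that of *SEPT2* was 0.50. The changes of the other septins ran from -0.12 (*SEPT7*) to 0.20 (*SEPT3*).

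The composition of septin mRNA differed between the oocyte and the embryo libraries. *SEPT11* took 54.5, 53.1 and 54.2% of the summed FPKM of the 6 septins in MII oocytes, 36.0 to 47.6% in 4-cell embryos and 36.6 to 44.2% in 8-cell embryos. *SEPT7* took 22.4 to 27.7% in MII oocytes, 34.5 to 51.2% in 4-cell embryos and 24.6 to 44.5% in 8-cell embryos, where 8-cell replicate 1 was the library at 24.6%. In that library *SEPT1* took 27.2%, and in the other 8-cell libraries 10.6 and 12.8%.

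**Figure D3:**
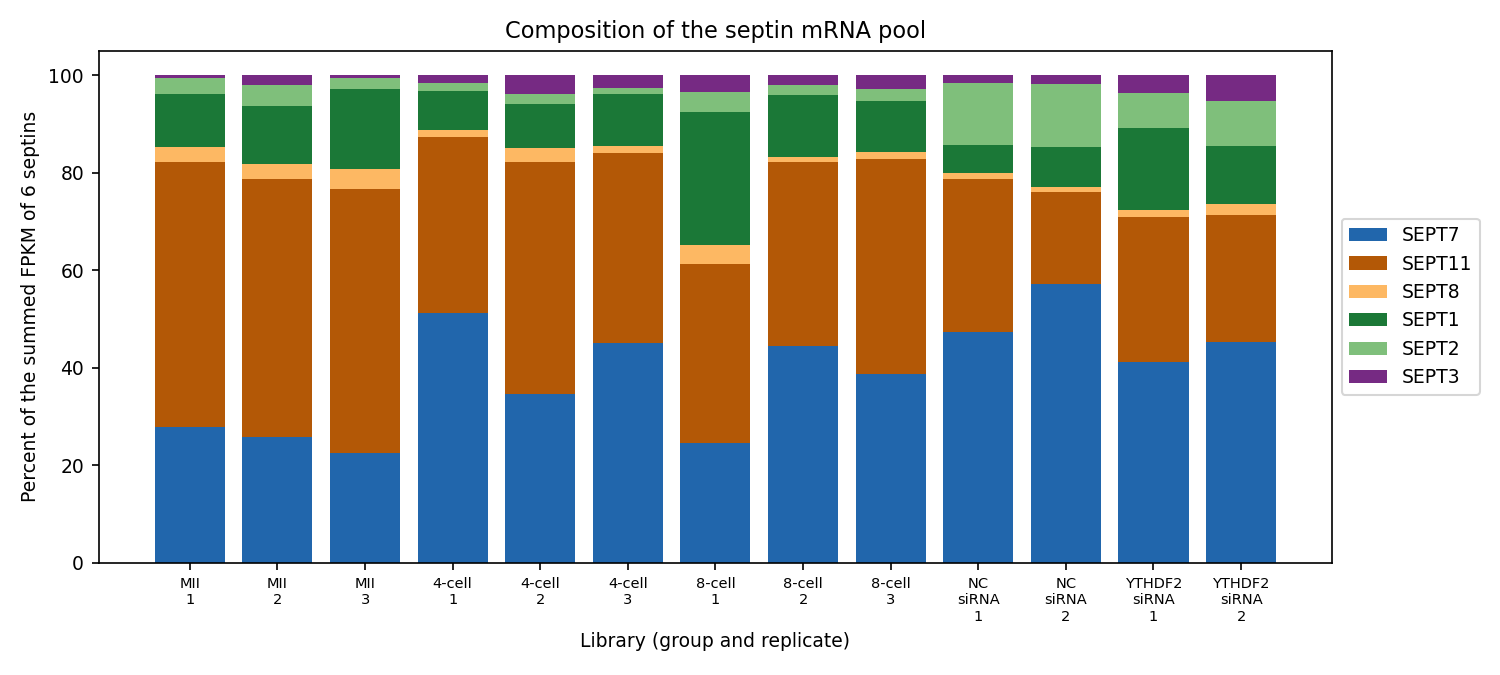
Share of each septin (stacked bars, percent of the summed FPKM of the 6 septins) in each of the 13 libraries, ordered by group and replicate. *SEPT11* (orange) held 53.1 to 54.5% in MII oocytes and at most 47.6% in each other library.

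The ratio of *SEPT11* to *SEPT7* within a library does not depend on how libraries are scaled. It was 1.97, 2.06 and 2.42 in MII oocytes, 0.704, 1.38 and 0.868 in 4-cell embryos, and 1.49, 0.844 and 1.14 in 8-cell embryos. Each oocyte library was above each embryo library. The mean log2 ratio differed from that of MII oocytes by -1.18 in 4-cell embryos and by -0.92 in 8-cell embryos (two-sided exact permutation test, p = 0.1 for each, the smallest that 3 against 3 libraries allow). These values were seen before the test was chosen. Between the 8-cell and the 4-cell stage the difference was 0.26 (exact permutation p = 0.6). The ratio of *SEPT1* to *SEPT7* was 0.394 to 0.732 in MII oocytes and 0.156 to 0.261 in 4-cell embryos, and 1.11, 0.288 and 0.274 in 8-cell embryos, where 8-cell replicate 1 was the high library. The ratios show unequal change of the 2 genes of a pair and not which of them changed.

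**Figure D4:**
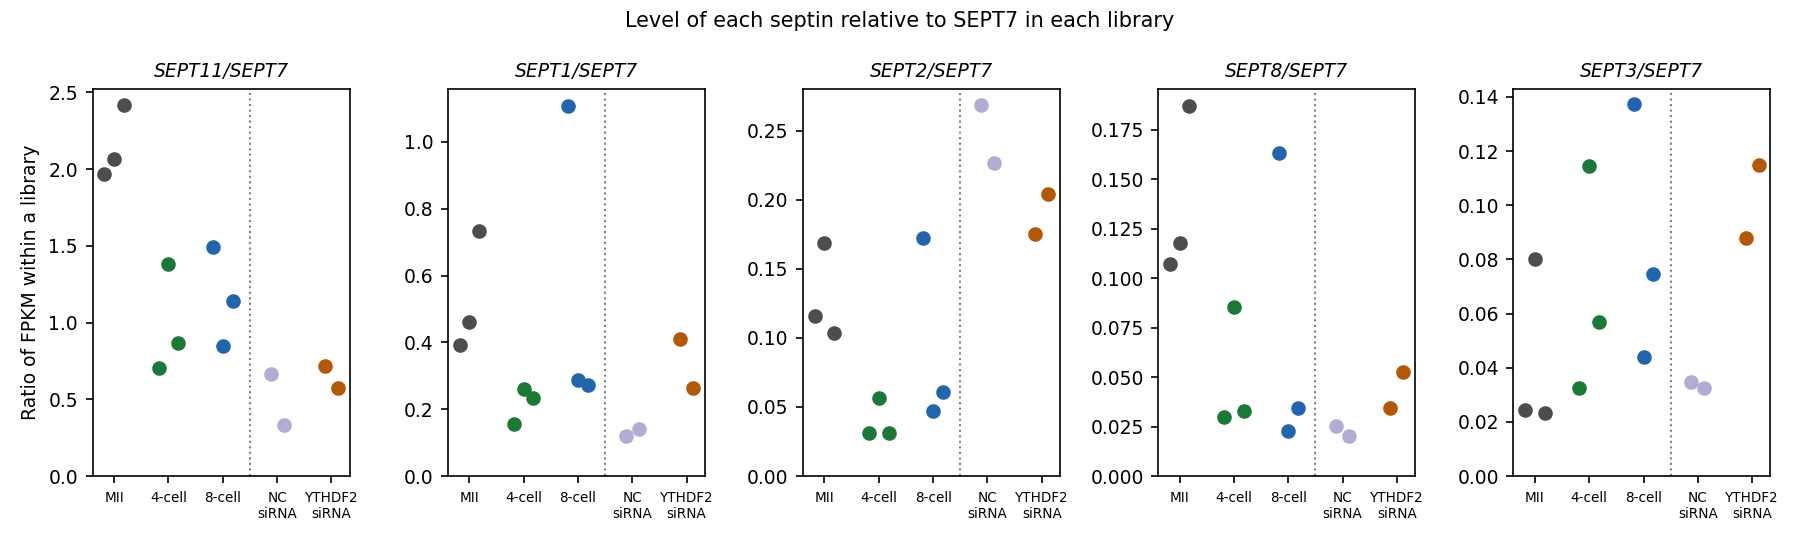
FPKM of each septin divided by that of *SEPT7* in the same library (vertical axes, linear from 0, separate scale for each panel), with a point per library. The ratio of *SEPT11* to *SEPT7* lay between 1.97 and 2.42 in MII oocytes and at 1.49 or less in the embryos.

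The summed FPKM of the 6 septins was 179, 196 and 205 in MII oocytes, 238, 296 and 237 in 4-cell embryos and 302, 265 and 303 in 8-cell embryos. Each embryo library was above each oocyte library on the FPKM scale. The mean log2 of this sum differed from that of MII oocytes by 0.40 in 4-cell embryos and by 0.58 in 8-cell embryos. In 4-cell embryos the difference was 0.03 by median ratios and -0.14 by a common sum. Both rescalings also made it smaller in 8-cell embryos, with the values given further below.

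The comparison of *YTHDF2* siRNA with NC siRNA asks whether septin mRNA levels differ in 8-cell embryos when *YTHDF2* mRNA is lowered. The YTHDF2 protein was not measured in these data. limma called 0 of 6 septins, where 7.98% of the 11004 genes tested were called (2.06% higher, 5.92% lower). The rule of the study's methods called 2 of 6, *SEPT1* and *SEPT3*, where it called 24.8% of all genes, and these were the 2 septins with an unadjusted p under 0.05. In 5 of 6 septins the groups did not overlap, beside 61.0% of all genes, but *SEPT7* counts among the 5 by the last decimal alone (75.30 against 75.29 FPKM).

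*SEPT3* measured 2.61 and 2.47 FPKM with NC siRNA and 6.62 and 7.27 FPKM with *YTHDF2* siRNA. The groups were well apart, with a mean ratio of 2.73 and a log2 fold change of 1.17 (SE 0.42, 0.27 to 2.06, limma adjusted p = 0.091, and 0.064 to 0.32 over 10 alternatives). *SEPT1* measured 9.03 and 10.7 FPKM with NC siRNA and 30.8 and 16.7 FPKM with *YTHDF2* siRNA. Both knockdown libraries were higher, by a mean ratio of 2.40 and a log2 fold change of 1.13 (SE 0.44, 0.19 to 2.07, adjusted p = 0.11, range 0.052 to 0.39). Leaving out *YTHDF2* siRNA replicate 1 gave 0.70 for *SEPT1*.

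*SEPT8* measured 1.92 and 1.53 FPKM with NC siRNA and 2.60 and 3.33 FPKM with *YTHDF2* siRNA, a log2 fold change of 0.54 (limma adjusted p = 0.40). *SEPT2* measured 20.2 and 17.2 FPKM with NC siRNA and 13.2 and 12.9 FPKM with *YTHDF2* siRNA, a log2 fold change of -0.48 (-1.36 to 0.40, adjusted p = 0.44). *SEPT7* measured 75.30 and 75.84 FPKM with NC siRNA and 75.29 and 63.21 FPKM with *YTHDF2* siRNA, with a log2 fold change of -0.13 (-0.96 to 0.70, adjusted p = 0.85). *SEPT11* measured 49.9 and 25.2 FPKM with NC siRNA and 54.0 and 36.2 FPKM with *YTHDF2* siRNA, overlapping, with a log2 fold change of 0.31 (-0.64 to 1.26, adjusted p = 0.66). The intervals are wide, so a p above the threshold does not show that these levels were alike. The median over the 6 septins was 0.42, beside 0.01 over all genes. It lies between the values of *SEPT11* and *SEPT8*. When a library was left out these ran from -0.17 to 0.79 and from 0.41 to 0.67, and the median over all genes from -0.09 to 0.14.

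Within the injected libraries the ratio of *SEPT3* to *SEPT7* was 0.0326 to 0.0347 with NC siRNA and 0.0879 to 0.115 with *YTHDF2* siRNA. That of *SEPT1* to *SEPT7* was 0.120 to 0.141 and 0.264 to 0.409, and that of *SEPT2* to *SEPT7* was 0.227 to 0.268 and 0.175 to 0.204. The ratio of *SEPT11* to *SEPT7* was 0.662 and 0.332 with NC siRNA and 0.718 and 0.573 with *YTHDF2* siRNA. None of these ratios was tested across the 2 groups apart from that of *SEPT11* (log2 difference 0.45, exact permutation p = 0.67, smallest possible 0.33).

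Levels of markers of other cells and stages were set beside these values. The sum of the oocyte markers was 2035 to 3026 FPKM with NC siRNA, where 6 of the 9 listed genes averaged 1 FPKM or more, and 4193 to 4401 FPKM with *YTHDF2* siRNA, where all 9 did. The cumulus and granulosa list (11 of 12 listed) summed to 43.4 to 50.4 and 81.8 to 91.2 FPKM, with *FSHR* and *INHA* at 0 in both groups and *STAR*, *HAS2*, *VCAN* and *TNFAIP6* as the genes above 1 FPKM. Sperm markers (4 of 5 listed) summed to 5.71 to 14.9 FPKM with NC siRNA and 2.51 to 4.94 FPKM with *YTHDF2* siRNA, and leukocyte markers (3 of 4 listed) to 1.17 to 2.83 and 1.01 to 2.1 FPKM. Genes of the activated genome (2 of 5 listed) summed to 1995 to 2313 and 2146 to 2472 FPKM. The part of these differences in the septin values was not tested.

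Beside the untreated 8-cell embryos, the NC embryos had *SEPT2* at 17.2 and 20.2 FPKM, where the untreated libraries had 5.57 to 12.8, and *SEPT11* at 25.2 and 49.9 FPKM, where the untreated libraries had 99.7 to 134. *SEPT1* (9.03 and 10.7 FPKM beside 32.1 to 82.4), *SEPT3* (2.61 and 2.47 beside 5.18 to 10.2) and *SEPT8* (1.92 and 1.53 beside 2.69 to 12.1) also lay below the untreated libraries, and *SEPT7* (75.3 and 75.8) lay within their range of 74.3 to 118. With *YTHDF2* siRNA *SEPT1* (30.8 and 16.7 FPKM) and *SEPT11* (54.0 and 36.2) were also below their untreated ranges. *SEPT2* (13.2 and 12.9) was just above its own, and *SEPT3* (6.62 and 7.27) lay within its own. For *SEPT7* (75.3 and 63.2) and *SEPT8* (2.60 and 3.33) the higher value lay within the untreated range and the lower value below it. *YTHDF2* itself measured 10.8 to 16.7 FPKM in untreated 8-cell embryos and 112 to 159 FPKM with NC siRNA. The tables differ in study, gene list and scaling as well as in injection, and these cannot be told apart.

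The 7 other septin names held 0.30 to 2.60% of the summed FPKM of all 13 in a library. *SEPT14*, known from testis, had no fragment in any MII library and 92 fragments over the 4-cell libraries (0.936, 0.321 and 0.488 FPKM) and 132 over the 8-cell libraries (0.714, 0.176 and 1.54 FPKM). Taking 3 fragments per library as the limit for MII oocytes (a mean of 0.0437 FPKM), the 4-cell mean was at least 13.3-fold higher and the 8-cell mean at least 18.6-fold higher, counting error only. With the fragments on shared genes as the library total these bounds were 9.22-fold and 13.1-fold. With the whole library total, the 4-cell bound was at least 9.26-fold without 4-cell replicate 1. The 8-cell bound was at least 10.2-fold without 8-cell replicate 3. *SEPT10*, of the SEPT6 group, measured 0.974 ± 0.115 FPKM in MII oocytes, 1.13 ± 0.668 in 4-cell embryos and 0.576 ± 0.203 in 8-cell embryos, and 0.07 and 0 FPKM with NC siRNA beside 0.53 and 1.08 FPKM with *YTHDF2* siRNA. *SEPT4*, *SEPT5*, *SEPT6*, *SEPT9* and *SEPT12* stayed at 0.347 FPKM or below in each untreated library. *SEPT9*, which acts in the separation of daughter cells, measured 3.25 and 0.78 FPKM with NC siRNA and 0.46 and 0.25 FPKM with *YTHDF2* siRNA. It passed the filter on low values in the injected libraries only through the NC group, so its values are given as a description.

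Septins work with the contractile ring, the central spindle and the abscission machinery, so a list of 46 other cytokinesis genes was read from the same fits. Of the 35 tested in the untreated libraries, 7 were called higher and 4 lower in 4-cell embryos, 31.4% beside 31.2% of all genes. By median ratios and by a common sum the split was 3 higher and 6 lower. *ANLN*, whose protein anillin ties septins to the contractile ring, rose from 44.3 ± 7.71 to 103 ± 2.71 FPKM (log2 fold change 1.22, limma adjusted p = 0.0054), a call that was lost by median ratios (0.85, adjusted p = 0.062) and by a common sum (0.69, adjusted p = 0.068). *RACGAP1*, a centralspindlin subunit, rose by 1.42, *SPAST*, which cuts midbody microtubules, by 1.40, and *BIRC5*, of the chromosomal passenger complex, by 1.23 on the log2 scale. *PFN1*, the actin-binding profilin, fell by 2.33 from 41.9 ± 13.1 to 7.67 ± 3.42 FPKM (adjusted p = 0.0016). The genes of the midzone kinesin *KIF20A*, the kinase *AURKB* and the microtubule bundler *PRC1* fell by 1.43, 0.98 and 0.77. The calls of these 3 genes did not hold in every alternative. They held by median ratios and by a common sum, with larger falls. There *KIF20A* was at -1.79 and -1.99, *AURKB* at -1.24 and -1.71 and *PRC1* at -1.14 and -1.31. Without 4-cell replicate 1 or without 4-cell replicate 3 the list had 6 called higher and 1 lower, and *KIF20A* (adjusted p = 0.062 and 0.059), *AURKB* (0.10 and 0.059) and *PRC1* (0.13 and 0.10) lost their calls, while *PFN1* passed. Without MII replicate 1 or 2 the lower calls were 2, with *AURKB* at 0.085 and 0.098 and *PRC1* at 0.11 and 0.090. *AURKB* was also lost without 4-cell replicate 2 (0.053), and *PRC1* without MII replicate 3 (0.085), without 8-cell replicate 3 (0.057) and with the replicate block (0.080). With no filter on low values *AURKB* was at 0.075 and *PRC1* at 0.086.

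In 8-cell embryos 9 of the 35 were called higher and 2 lower against MII oocytes, 31.4% beside 37.4% of all genes. The split was 4 higher and 6 lower by median ratios and 6 higher and 4 lower by a common sum. Without 8-cell replicate 1 it was 10 higher and 4 lower. The named rises were those of *CEP55*, which recruits the abscission machinery to the midbody (1.70, from 1.80 ± 0.152 to 10.4 ± 9.91 FPKM), *BIRC5* (1.66, from 26.0 ± 2.57 to 85.1 ± 13.6 FPKM), *CHMP4C*, an ESCRT-III subunit (1.54), and *CDC42*, a GTPase that acts on septins through its effectors (1.23). The high 8-cell library of *CEP55* was replicate 2, at 21.9 FPKM beside 4.99 and 4.46, and without it the log2 fold change was 1.03 (limma adjusted p = 0.013), and by median ratios it was 1.43 (adjusted p = 0.051). The adjusted p of *CEP55* was 0.060 without MII replicate 1 and 0.059 without MII replicate 3, and 0.055 when only the 8-cell and MII libraries were fitted. *PFN1* and *KIF20A* fell by 1.63 and 1.47. In 8-cell replicate 1 *PFN1* was at 19.2 FPKM beside 10.6 and 9.38, and *KIF20A* at 39.96 FPKM beside 14.7 and 14.6, and the log2 fold changes were -1.92 and -1.94 with that library left out. *ANLN* measured 66.1, 126 and 113 FPKM (log2 fold change 1.14, limma adjusted p = 0.0057), with 0.77 by median ratios (adjusted p = 0.072), 0.73 by a common sum (0.046) and 1.42 without 8-cell replicate 1, the low library (4.8e-04). From the 4-cell to the 8-cell stage 1 of the 35 was called, 2.86% beside 8.29% of all genes. It was *MYH10*, a nonmuscle myosin II heavy chain, which rose from 3.21 ± 0.972 to 8.32 ± 1.95 FPKM (1.15, limma adjusted p = 0.025). The count there was 0 without MII replicate 1, 4-cell replicate 1, 4-cell replicate 3 or 8-cell replicate 2, and when only the 4-cell and 8-cell libraries were fitted. The list's median was 0.12, 0.23 and 0.07 in the 3 comparisons, beside 0.29, 0.37 and 0.07 over all genes.

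With *YTHDF2* siRNA 1 of 38 tested cytokinesis genes was called, 2.63% beside 7.98% of all genes. It was *CHMP4A*, of another ESCRT-III subunit, which measured 6.09 and 2.03 FPKM with NC siRNA and 0.29 and 0 FPKM with *YTHDF2* siRNA. It passed the filter on low values only through the NC group, and no gene of the list was called with no filter (count 0). The count was also 0 without NC replicate 1 or without *YTHDF2* siRNA replicate 2, and 2 without *YTHDF2* siRNA replicate 1. *ANLN* measured 113 ± 9.63 FPKM with NC siRNA and 106 ± 21.6 FPKM with *YTHDF2* siRNA (adjusted p = 0.88). The list's median was 0.09, beside 0.01 over all genes.

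**Figure D5:**
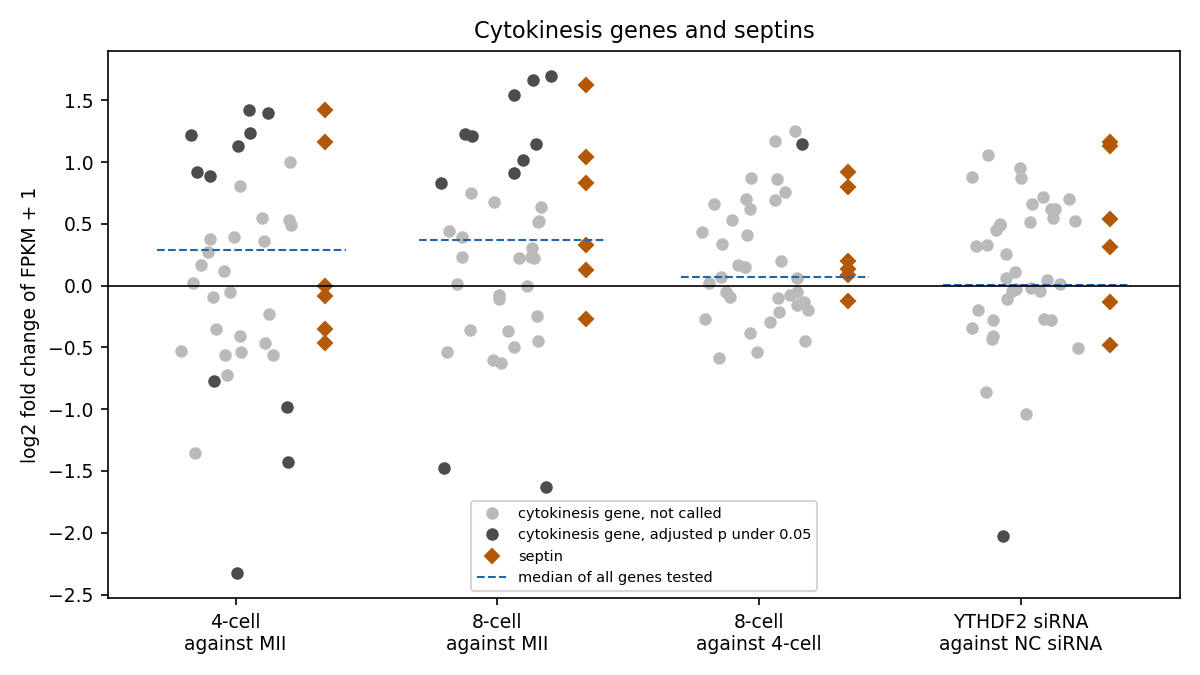
Log2 fold change of FPKM + 1 (vertical axis) of the tested cytokinesis genes (circles, dark where the adjusted p was under 0.05) and of the 6 septins (orange diamonds) in the 4 comparisons. The dashed line is the median of all genes tested. Against MII oocytes *SEPT7* lies among the cytokinesis genes called higher in both comparisons, and *SEPT3* lies among them in 8-cell embryos and just above *RACGAP1*, the highest of them, in 4-cell embryos (both 1.42).

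From 3667 genes averaging 10 FPKM or more, those whose log2(FPKM + 1) followed each septin most closely over the 9 untreated libraries were named as a description. For *SEPT7* they were *YTHDC1*, a nuclear m6A reader (Pearson r = 0.995), *CRK* (0.991) and *DCUN1D4* (0.990). *YTHDC1* averaged 5.63 FPKM in MII oocytes, 31.4 in 4-cell embryos and 26.0 in 8-cell embryos. For *SEPT3* they were *PDE6D* (0.974), *LSM4* (0.971) and *NLRP9* (0.970). *SEPT11* was followed most closely by *MKI67*, the proliferation antigen (0.936), *ASNSD1* (0.918) and *XRN2* (0.916). *SEPT1* was followed by *WDR45B* (0.950), *DDA1* (0.944) and *SMKR1* (0.941), *SEPT2* by *GTF2F1* (0.954), *TRAM2* (0.938) and *PAPSS1* (0.935), and *SEPT8* by *OAZ1* (0.969), *TRAF4* (0.967) and *FAM110A* (0.962). Between septins r was highest for *SEPT1* with *SEPT2* (0.70, and 0.19 without 8-cell replicate 1) and *SEPT3* with *SEPT7* (0.68, and 0.77 without it) and lowest for *SEPT7* with *SEPT8* (-0.54, and -0.62 without it). Without that library the values of *SEPT1* with *WDR45B*, *DDA1* and *SMKR1* were 0.782, 0.817 and 0.773, and those of the named genes of the other septins were 0.880 or more. All these values share the same 9 libraries, their scaling and the difference between stages.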

How the data were processed

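The authors used HISAT2 for alignment to the ARS1 goat assembly and HTSeq to count reads with a unique location, and deposited FPKM per gene in a table per group. Whole fragments were recovered from the FPKM steps for 17917 of 17918 untreated genes above 0 (tolerance 0.02 fragments). Names listed more than a single time were left out. Genes averaging 1 FPKM or more entered a fit on log2(FPKM + 1), the deposited unit and the only unit of the injected tables, with limma 3.58.1 in R 4.3.3 (mean-variance trend). The 9 untreated libraries formed 1 fit and the 4 injected libraries another, and a gene was called at a Benjamini-Hochberg adjusted p under 0.05 over all genes tested. Fold changes on this scale understate changes of low genes. Scripts were tested on simulated data. The members and gene lists were chosen with earlier results of these data known. Named were all septins, *YTHDF2*, up to 4 called cytokinesis genes per direction and the 3 genes most like each septin. *ANLN* at the 8-cell stage and in the knockdown was added after its values were seen. Alternatives were the pseudocount (0.1), no filter, 2 rescalings, a replicate block, leaving out each library, the groups fitted alone and the study's call rule. limma voom on recovered fragments and a crossed block were added after seeing the data. Confidence intervals are limma's and rest on the spread between libraries, and only the limits from 3 fragments cover counting error. RefSeq coordinates (another assembly) served only for symbols and overlaps.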

Additional observations from a re-analysis of the deposited data

How the results depend on the processing

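*SEPT7* was higher in the embryos than in MII oocytes under each alternative. The number of septins called at the 4-cell stage (2) was 1 with no filter, 0 by median ratios, 1 by a common sum and 1 with the replicate block, and 1 to 2 when a library was left out. At the 8-cell stage (2) it was 1 by either rescaling and 1 to 2 when a library was left out. In the knockdown (0) it was 2 by the study's call rule. The cytokinesis count (11) at the 4-cell stage was 7 by the study's rule, where 22.8% of all genes were called. It was 7 to 12 when a library was left out, where calls of all genes were 1820 to 3564 (2833 with no library left out). From the 4-cell to the 8-cell stage (1) it was 0 with only those groups fitted and 0 to 1 when a library was left out. In the knockdown (1) it was 0 with no filter, where 0 of 20357 genes were called. It was 2 with the crossed replicate block, where calls of all genes went from 878 to 2107. By the study's rule it was 3, where 24.8% of all genes were called. Each fit that leaves 1 library in an arm assumes that it varies like the others.

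The difference in mean log2 summed septin FPKM (0.40 and 0.58 against MII oocytes) was 0.027 and 0.20 by median ratios and -0.14 and 0.16 by a common sum. Reversals concerned septins that were not called. Against MII oocytes at the 4-cell stage, *SEPT1* (-0.25 to 0.13 when a library was left out) was 0.13 when MII replicate 3 was left out and 0.05 when 4-cell replicate 1 was, and *SEPT11* (-0.22 to 0.13) was 0.04, 0.13 and 0.08 when MII replicate 3, 4-cell replicate 1 or 4-cell replicate 3 was. At the 8-cell stage *SEPT2* was -0.0023 by median ratios and -0.045 by a common sum, *SEPT11* was -0.25 and -0.30, and *SEPT8* (-0.80 to 0.11) was 0.11 without 8-cell replicate 2. From the 4-cell to the 8-cell stage *SEPT7* (-0.23 to 0.10) was 0.10 and *SEPT8* (-0.45 to 0.46) was -0.45 without 8-cell replicate 1. Without 4-cell replicate 1, *SEPT3* (-0.11 to 0.57) was -0.11, *SEPT8* -0.09 and *SEPT11* (-0.0043 to 0.35) -0.0043, and without 4-cell replicate 3 *SEPT8* was -0.11. In the knockdown *SEPT11* (-0.17 to 0.79) was -0.17 without NC replicate 2. For reversals and lost calls other than those of smaller fits, the cause was not tested.

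Replicate numbers did not pair the libraries: deviations of same-numbered untreated libraries correlated between -0.51 and 0.20, and those of the injected libraries at -0.15. With the replicate block the *SEPT3* call at the 4-cell stage was lost (log2 fold change 1.42, adjusted p = 0.056), and the calls of all genes went from 2833 to 2337 at the 4-cell stage, from 754 to 311 between the embryo stages and from 878 to 461 in the knockdown (2107 with the crossed block). Calls of all genes in the knockdown were 404 by median ratios and 0 with no filter on low values (20357 genes tested).

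*SEPT3* and *SEPT2* rest on the fewest fragments of the septins described, and depth is unknown in the injected libraries.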
